A study of Mus musculus with 24 samples.

Results

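The response of wild type mouse liver to pregnenolone 16alpha-carbonitrile (PCN) was measured on 6 of the 24 arrays of the series, all those whose titles name PCN-treated wild type liver. On each array the Cy5 channel held RNA of livers of male C57BL/6J mice, 9 to 12 weeks old, killed 12 h after an intraperitoneal dose of 40 mg/kg PCN, and the Cy3 channel held 1 pool of RNA from wild type livers given vehicle, 5% DMSO in corn oil. One label describes the pool as untreated and another as vehicle-injected, and the second wording is followed. The other genotypes, CAR-deficient, PXR-deficient and CAR/PXR-deficient, had 6 arrays each, with PCN-treated liver set against the genotype's own vehicle pool in the same way. The Steroltalk V2 array is a spotted 2-colour design with 284 mouse probes for drug metabolism, cholesterol, bile acid and clock genes, most spotted 3 times.

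PCN is a synthetic steroid that activates the rodent pregnane X receptor (PXR, gene Nr1i2), a nuclear receptor that binds DNA as a partner of the retinoid X receptors and turns on genes of oxidation, conjugation and transport of foreign compounds and bile acids. The constitutive androstane receptor (CAR, gene Nr1i3) is its close relative and shares part of its targets. The Cyp3a enzymes, which oxidise steroids and many drugs, are the classical targets of PXR in liver.

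Every value below is a log2 ratio of PCN-treated liver over the vehicle pool, after background correction and loess within the array, so that a positive value means higher in PCN-treated liver. A probe was called when its adjusted p against 0 was under 0.05 in limma over 236 tested probes with Benjamini-Hochberg adjustment. No dye was swapped, so within wild type a probe's dye effect and its PCN effect cannot be told apart. A dye effect that is the same in every genotype cancels in a difference between genotypes. Nothing in the labels settles whether the 6 samples are separate animals, and RNA of 6 replicates is said to have been pooled without naming a channel. Each p-value rests on how far a probe varies within all 4 genotypes, over the 24 arrays, and not on these 6 samples alone. That variation may be technical only, and it leaves out the spread of the vehicle pools.

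The 6 wild type arrays had median foreground intensities of 282 to 514.5 in Cy5 (PCN) and 370 to 660.5 in Cy3 (vehicle pool), with 16.4% to 19.5% of spots flagged and 209 to 233 mouse probes above background. Their log2 ratios over the tested probes correlated pairwise at Pearson's r of 0.697 to 0.895 (median 0.803), and at 0.329 to 0.806 (median 0.537) without the 5 probes that rose most. These are correlations across probes, which are not independent replicates. Arrays 1 and 2 carried larger ratios than the other 4 for many called probes, and values without them are given below. Outside wild type, array 2 of the PXR-deficient group stood apart, with a lowest r of 0.151 and a median of 0.332 against the other PXR-deficient arrays. Of hepatocyte markers the array held Apoa1 and Hnf4a, both above background, and it held no marker of macrophages, stellate cells, endothelium, bile ducts or blood. In liver RNA, fewer cells of a type and less RNA per cell cannot be told apart.

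The 3 Cyp3a probes that carry the largest named rises share a gene family, and the sequences just upstream of their starts are shown because the genes moved together. Each is the 250 bases before the annotated start, 5′ to 3′ on the gene's own strand, from RefSeq on GRCm38.p6, with capitals marking the nuclear receptor hexamers AGTTCA or AGGTCA on either strand. Cyp3a11 lies at chr5:145879855-145880104, Cyp3a41a at chr5:145720137-145720386 and Cyp3a13 at chr5:137921620-137921869, all on the minus strand.
Cyp3a11: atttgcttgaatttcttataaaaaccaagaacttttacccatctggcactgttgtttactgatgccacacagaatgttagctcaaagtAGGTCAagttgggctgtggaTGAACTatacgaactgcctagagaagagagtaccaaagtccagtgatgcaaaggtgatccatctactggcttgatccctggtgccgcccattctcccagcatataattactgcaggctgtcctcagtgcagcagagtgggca
Cyp3a41a: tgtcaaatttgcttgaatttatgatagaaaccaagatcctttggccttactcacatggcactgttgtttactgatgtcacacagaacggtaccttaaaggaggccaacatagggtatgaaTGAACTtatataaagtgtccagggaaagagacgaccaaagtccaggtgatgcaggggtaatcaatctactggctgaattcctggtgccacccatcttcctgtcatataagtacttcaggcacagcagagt
Cyp3a13: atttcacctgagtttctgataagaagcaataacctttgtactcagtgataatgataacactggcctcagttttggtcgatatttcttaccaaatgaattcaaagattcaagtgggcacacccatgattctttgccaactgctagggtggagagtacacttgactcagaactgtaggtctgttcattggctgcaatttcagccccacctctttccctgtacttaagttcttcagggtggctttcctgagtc

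Cyp3a11 and Cyp3a41a had the same base at 191 of 250 positions after a global alignment with gaps. The Cyp3a11 stretch held 1 AGTTCA hexamer, read as TGAACT and beginning 142 bases before the start, and 1 AGGTCA hexamer beginning 162 bases before it. The Cyp3a41a stretch held 1 AGTTCA hexamer, also as TGAACT, beginning 130 bases before the start, and the Cyp3a13 stretch held neither. Of 32851 promoter stretches of the same length, 11.8% held an AGTTCA hexamer and 14.0% an AGGTCA hexamer on either strand. The paired arrangements known as binding sites of such receptors, DR3 and DR4 (2 hexamers in the same direction with 3 or 4 bases between them) and ER6 (2 pointing apart with 6 bases between them), searched on both strands with either hexamer in each place and no mismatch, were in none of the 3 stretches, and these letters are rare in such windows, with DR3 in 4 of all 32851.

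PCN-treated wild type liver had 89 called probes (37.7% of 236), 50 higher (21.2%) and 39 lower (16.5%). Most changes were small: 10 called probes reached 1.5-fold, 6 higher and 4 lower, and 5 reached 2-fold, all higher. The median of all 236 probes was 0.00, that of the 50 rises 0.22 and that of the 39 falls -0.30, against a median SD over the 6 arrays of 0.16 for a probe. The 6 arrays gave the same sign for 74 probes (31.4%), 40 of them positive. Of the 147 uncalled probes, 144 had a 95% interval that lay inside 1.5-fold in both directions. The number of calls rested on single arrays: it was 46 without array 1, 55 without array 2 and 33 without both (15 higher, 18 lower). It also moved with the scaling. Centring each array on the median of its control probes, in place of loess, also drops the fit by intensity. It moved the median of all probes to -0.19. It left 7 probes higher and 18 lower, against 50 and 39. After loess, control probes averaged from -2.90 (ST_Cr_026) to 3.01 (ST_Cr_027) in wild type, with an SD of 0.86 for ST_Cr_003. Whether they make a neutral reference was not tested. Control-probe centring put PXR-deficient array 2 at a median of 1.21, with wild type arrays at -0.31 to -0.10. All 24 arrays share 1 estimate of spread. How far that array lowered the calls was not tested. In fits of the wild type arrays alone, loess gave 37 higher and 39 lower, and control-probe centring 9 and 96. The authors' deposited log2 ratios gave 16 higher and 22 lower.

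**Figure D1:**
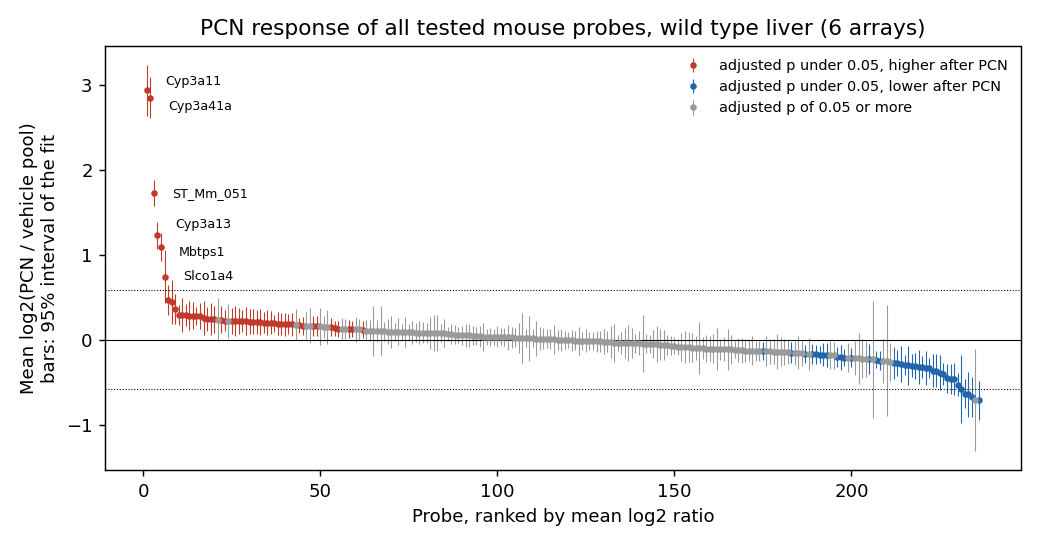
Mean log2 ratio of PCN over the vehicle pool for the 236 tested mouse probes in wild type liver, ranked along the horizontal axis. Bars are 95% intervals of the limma fit, dotted lines mark 1.5-fold, and colours show the 50 higher, 39 lower and 147 uncalled probes. A handful of probes at the left stand far above the rest, and the falls at the right end near -0.71.

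The Cyp3a genes rose most. Cyp3a11, the main drug-oxidising Cyp3a enzyme of mouse liver, had log2 ratios of 2.61 at the lowest, 2.90 at the median and 3.35 at the highest of the 6 arrays. It averaged 2.94 ± 0.32 (SD, n = 6), a 7.68-fold rise (limma adjusted p = 4.53e-15). All 6 arrays lay far above 0, and before normalization its foreground intensity had a median of 27530 in Cy5 (PCN) and 3251 in Cy3 (vehicle pool), with at most 1% of pixels saturated.

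Cyp3a41a, described as a female-predominant Cyp3a enzyme of mouse liver, gave 2.58, 2.88 and 2.99 at the lowest, median and highest array and averaged 2.85 ± 0.15 (SD, n = 6), or 7.23-fold (limma adjusted p = 2.09e-16). Cyp3a13, a family member also found in intestine, gave 1.06, 1.21 and 1.42 and averaged 1.23 ± 0.16 (SD, n = 6), or 2.35-fold (limma adjusted p = 6.73e-13). The arrays of Cyp3a41a and of Cyp3a13 were all above 0 and close together. The 3 genes are similar in sequence, and whether a probe also binds the transcript of another was not tested, since no probe sequences were used here. The calls of all 3 were kept in each of the 24 alternatives run on them. ST_Mm_051, a probe without a gene name here, came between them at 1.73 ± 0.23 (SD, n = 6), with a lowest array of 1.36.

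The other rises past 1.5-fold were Mbtps1 and Slco1a4. Mbtps1, the site-1 protease that releases the sterol-sensing SREBP factors, gave 0.78, 1.07 and 1.5 at the lowest, median and highest array and averaged 1.09 ± 0.24 (SD, n = 6), or 2.13-fold (limma adjusted p = 3.13e-11). All 6 arrays were above 0, and the vehicle pool was above background on 3 of 6 of them. Slco1a4, an organic anion uptake carrier and a known PXR target, gave 0.27, 0.62 and 1.61 and averaged 0.75 ± 0.49 (SD, n = 6), or 1.68-fold (limma adjusted p = 0.00058). Array 2 was the high one at 1.61, and the pool was above background on 4 of 6 arrays. The call was lost under control-probe centring of all arrays (limma adjusted p = 0.138), but not with the wild type arrays alone.

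Smaller rises included Apoa1 and Alas1. Apoa1, the main protein of HDL, ranged over the arrays from 0.23 to 0.77 with a median of 0.41, and averaged 0.47 ± 0.21 (SD, n = 6; limma adjusted p = 0.000204). Its call was lost under control-probe centring and in the authors' deposited log2 ratios, with an average there of 0.02. Alas1, the first and rate-limiting enzyme of haem synthesis, ranged between -0.01 and 0.61 with a median of 0.48 and averaged 0.36 ± 0.28 (SD, n = 6; limma adjusted p = 0.00249). Arrays 1 and 5 were near 0 for Alas1 and the other 4 lay at 0.39 or more. The Alas1 call was lost under control-probe centring of all arrays (limma adjusted p = 0.138).

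Cyp4b1, a fatty acid and xenobiotic oxidising enzyme, had the tightest values among the 15 largest named rises, from 0.21 to 0.33, with a mean of 0.30 ± 0.05 (SD, n = 6; limma adjusted p = 0.000328). Its call was lost under control-probe centring, both of all arrays and of the wild type arrays alone. Srebf2, which encodes the sterol-regulated transcription factor SREBP2, averaged 0.28 ± 0.16 (SD, n = 6; limma adjusted p = 0.00461). Its vehicle pool was not well above background on any array, and Cy5 was on 4 of 6. It is therefore given as at least 1.03-fold higher, under the main settings only. The Srebf2 call was lost in 6 of 23 alternatives, among them median centring, control-probe centring, the authors' deposited log2 ratios and leaving out arrays 1 and 2. The lowest average among the 23 was 0.03. Slc10a2, the bile acid uptake carrier best known from ileum, averaged 0.28 ± 0.11 (SD, n = 6; limma adjusted p = 0.000294). The pool was above background for Slc10a2 on 3 of 6 arrays, and the call was lost under median centring and under control-probe centring, with an average of 0.02 under control-probe centring. The other 5 were Tbxas1, thromboxane synthase, and the nuclear receptors Esrrb, Nr2c1, Nr5a1 and Nr2e1, with means of 0.24 to 0.30. Arrays 1 and 2 were the 2 highest for each of these 5. Without arrays 1 and 2 none of the 5 was called. Nr5a1 and Nr2e1, best known from adrenal gland and brain, were above background in both channels on 6 of 6 arrays.

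**Figure D2:**
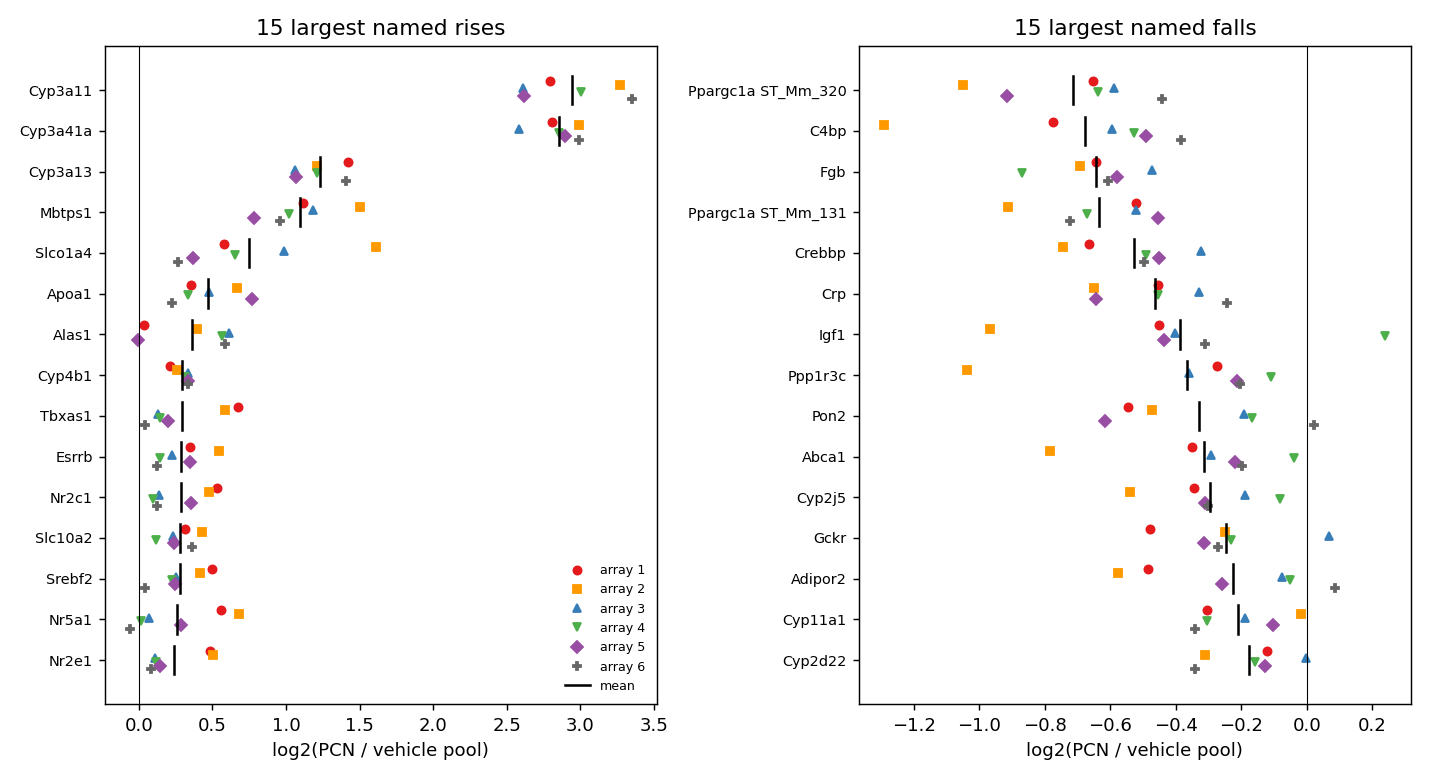
Log2 ratio of PCN over the vehicle pool on each of the 6 wild type arrays, for the 15 largest named rises and the 15 largest named falls. Each marker is 1 array and the black line is the mean. The 6 Cyp3a11 values lie between 2.61 and 3.35, and array 2 is the lowest for several falls, such as C4bp at -1.29.

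Among the falls, Ppargc1a and 2 liver secretory genes stood at 1.5-fold or more. Ppargc1a, which encodes the coactivator PGC-1alpha of fasting metabolism and mitochondrial genes, had 2 probes that agreed. ST_Mm_320 gave -1.05, -0.65 and -0.44 at the lowest, median and highest array, with a mean of -0.71 ± 0.22 (SD, n = 6; limma adjusted p = 3.52e-05), or 1.64-fold lower. ST_Mm_131 gave -0.91, -0.60 and -0.46, with a mean of -0.63 ± 0.17 (SD, n = 6; limma adjusted p = 1.89e-06), or 1.55-fold lower. Every value of both probes lay below 0, and array 2 was the lowest for both.

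C4bp, the complement C4-binding protein made by liver, gave -1.29, -0.56 and -0.39, with a mean of -0.68 ± 0.33 (SD, n = 6; limma adjusted p = 9.12e-05). Fgb, the fibrinogen beta chain, gave -0.87, -0.63 and -0.47, with a mean of -0.64 ± 0.13 (SD, n = 6; limma adjusted p = 0.000537). Crp, C-reactive protein, gave -0.65, -0.45 and -0.24, with a mean of -0.46 ± 0.16 (SD, n = 6; limma adjusted p = 0.000335). These 3 encode plasma proteins of hepatocytes, and each was below 0 on 6 of 6 arrays. Crebbp, the acetyltransferase CBP that serves many transcription factors as a coactivator, averaged -0.53 ± 0.15 (SD, n = 6; limma adjusted p = 1.13e-06). The calls of these 4 and of both Ppargc1a probes held in each of the 24 alternatives run on them.

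The remaining named falls were smaller, with means of -0.39 to -0.18. Igf1, the growth hormone-dependent growth factor, averaged -0.39 ± 0.39 (SD, n = 6; limma adjusted p = 0.0045), with array 2 at -0.97 and array 4 at 0.24. Ppp1r3c, a glycogen-targeting phosphatase subunit, averaged -0.37 ± 0.34 (SD, n = 6; limma adjusted p = 0.00481), with array 2 at -1.04 and the other 5 between -0.36 and -0.11. Abca1, the cholesterol export pump, averaged -0.31 ± 0.25 (SD, n = 6; limma adjusted p = 0.00241) with array 2 again lowest at -0.79. The calls of Igf1, Ppp1r3c and Abca1 were lost without arrays 1 and 2. Cyp2j5, an arachidonic acid epoxygenase, averaged -0.29 ± 0.16 (SD, n = 6; limma adjusted p = 0.000321). Its call was lost under median centring and under control-probe centring of all arrays. Pon2, Gckr, Adipor2, Cyp11a1 and Cyp2d22 completed the 15. The Cyp11a1 call was lost under median centring, under control-probe centring of all arrays and in the authors' deposited log2 ratios. The call was lost in 16 of 24 alternatives for Cyp2d22, 13 for Adipor2 and 6 for Pon2, and those of Pon2, Gckr, Adipor2 and Cyp2d22 were also lost without arrays 1 and 2.

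The list of PXR and CAR target genes had 19 tested probes, of which 7 were higher, 2 lower and 10 uncalled, with a median log2 ratio of 0.03 beside 0.00 for all probes. Beyond the 5 already described the higher ones were Cyp1a2 (0.22 ± 0.06, limma adjusted p = 0.0347) and Cyp1a1 (0.21 ± 0.21, limma adjusted p = 0.0314), enzymes better known as targets of the aryl hydrocarbon receptor. The lower ones were Cyp2j5 and Cyp2d22. Under median centring, and without array 1, array 2, array 5 or arrays 1 and 2, only the 5 already described were called higher. The higher probes numbered 6 in the authors' deposited log2 ratios and 3 under control-probe centring. Median centring left 0 lower. The transporters Abcc2 (0.10, limma adjusted p = 0.149), Abcc3 (0.03, limma adjusted p = 0.74) and Abcb1a (-0.22, limma adjusted p = 0.114), and Cyp2b13 (-0.00, limma adjusted p = 0.958), were uncalled. Cyp2b9, a CAR target, was above background on 1 of 6 arrays and was not tested. The called share of the list, 9 of 19, stands beside 37.7% over all probes.

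The cholesterol synthesis list had 14 tested probes, with 6 higher, 1 lower and 7 uncalled, and a median of 0.15, where 37.7% of all probes were called and 21.2% were higher. The higher ones include the regulators Mbtps1, Srebf2, Srebf1 and Scap, the escort protein of the SREBPs, which averaged 0.17 ± 0.10 (SD, n = 6; limma adjusted p = 0.00414). They also include the synthesis enzymes Mvd (0.25, limma adjusted p = 0.042) and Lss (0.20, limma adjusted p = 0.0334). Ebp, a late sterol isomerase, was the lower one (-0.21, limma adjusted p = 0.0247). Other enzymes of the pathway were uncalled, among them Hmgcs1 (-0.11, limma adjusted p = 0.286), Fdft1 (-0.15, limma adjusted p = 0.198) and Fdps (0.12, limma adjusted p = 0.172), as was Insig1 (-0.22, limma adjusted p = 0.0852), the anchor that holds SREBPs in the endoplasmic reticulum. The higher probes numbered 3 under median centring, 1 under control-probe centring, 2 in the authors' deposited log2 ratios, 3 without array 1, 3 without array 2 and 2 without both. Under control-probe centring the list's median was 0.03.

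In the bile acid list 3 of 9 probes were higher, 1 lower and 5 uncalled, with a median of 0.05, again beside 37.7% called over all probes. The higher ones numbered 1 under median centring, 1 in the authors' deposited log2 ratios, and 0 under control-probe centring (limma, with 0 at an unadjusted p under 0.05). Nr0b2, the repressor SHP of bile acid synthesis, averaged 0.18 ± 0.13 (SD, n = 6; limma adjusted p = 0.0206), and under control-probe centring its sign turned (-0.06). Cyp46a1, a brain cholesterol hydroxylase, averaged 0.20 ± 0.16 (SD, n = 6; limma adjusted p = 0.0136), and Cyp27a1, the sterol hydroxylase of the acidic pathway, averaged -0.17 ± 0.13 (SD, n = 6; limma adjusted p = 0.0211), a call lost in 9 of 24 alternatives. Cyp7a1, the rate-limiting enzyme of bile acid synthesis, stood at 0.05 (limma adjusted p = 0.579) and Cyp8b1, which sets the cholic acid share, at -0.01 (limma adjusted p = 0.90). Abcb11, the bile salt export pump, stood at -0.25 (limma adjusted p = 0.124).

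Of 24 probes for nuclear receptors and cofactors, 7 were higher, 3 lower and 14 uncalled, with a median of 0.08, beside 37.7% called and 21.2% higher over all probes. The list does not hold every nuclear receptor on the array: Esrrb, Nr2c1, Nr5a1, Nr2e1 and Rarb, all called higher, are outside it. The higher probes of the list numbered 1 under median centring, 1 in the authors' deposited log2 ratios, 1 without array 1 and 3 without array 2. They numbered 0 under control-probe centring and 0 without arrays 1 and 2 (limma, with 1 and 2 higher at an unadjusted p under 0.05). The lower ones were the cofactors already named, Crebbp and both Ppargc1a probes. The receptor of PCN itself, Nr1i2, was among the higher ones at 0.22 ± 0.06 (SD, n = 6; limma adjusted p = 0.025), above 0 on 6 of 6 arrays, and Nr1i3 (CAR) stood at 0.07 (limma adjusted p = 0.208). Rxrb, a partner of PXR, averaged 0.19 ± 0.09 (SD, n = 6; limma adjusted p = 0.00461), while Rxra, the main partner in liver, stood at -0.00 (limma adjusted p = 0.94). Nr3c1, the glucocorticoid receptor, averaged 0.20 (limma adjusted p = 0.0216).

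The clock list had only 4 tested probes, all uncalled, where 37.7% of all probes were called. They were Rora at 0.13 (limma adjusted p = 0.0846), Nr1d2 at 0.10 (limma adjusted p = 0.138), Per2 at 0.04 (limma adjusted p = 0.766) and Cry1 at -0.07 (limma adjusted p = 0.401). Per1, Per3, Cry2 and Rorb were below background on every wild type array and were not tested. The 95% intervals of the 4 tested probes lay between -0.19 and 0.25 on the log2 scale, and for Per2 the pool was above background on 1 of 6 arrays. A single time was sampled, so phase was not measured.

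The remaining lists are short and stand beside 37.7% called over all probes, 21.2% higher and 16.5% lower. In the lipid list Apoa1 was higher, Abca1 lower and 4 of 6 uncalled. Among the uncalled were the sterol transporter subunits Abcg5 (0.00, limma adjusted p = 0.99) and Abcg8 (-0.07, limma adjusted p = 0.281). G6pc, the glucose-releasing phosphatase, averaged -0.22 ± 0.54 (SD, n = 6; limma adjusted p = 0.249), with array 2 at -1.02 and array 3 at 0.44. Of 5 steroid hormone probes only Cyp11a1 was called, lower at -0.21 ± 0.13 (SD, n = 6; limma adjusted p = 0.00226), a call lost in 4 of 24 alternatives. Cyp17a1 stood at -0.02 (limma adjusted p = 0.829). In the acute phase and stress list Crp was lower and Fos stood at -0.11 (limma adjusted p = 0.152). Of 5 housekeeping probes Ppia (0.16, limma adjusted p = 0.0318) and 2 Gapdh probes (0.14 and 0.12) were called higher, 3 in all, and both Gapdh probes turned sign under control-probe centring (-0.03 and -0.01), so their direction is not settled here.

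**Figure D3:**
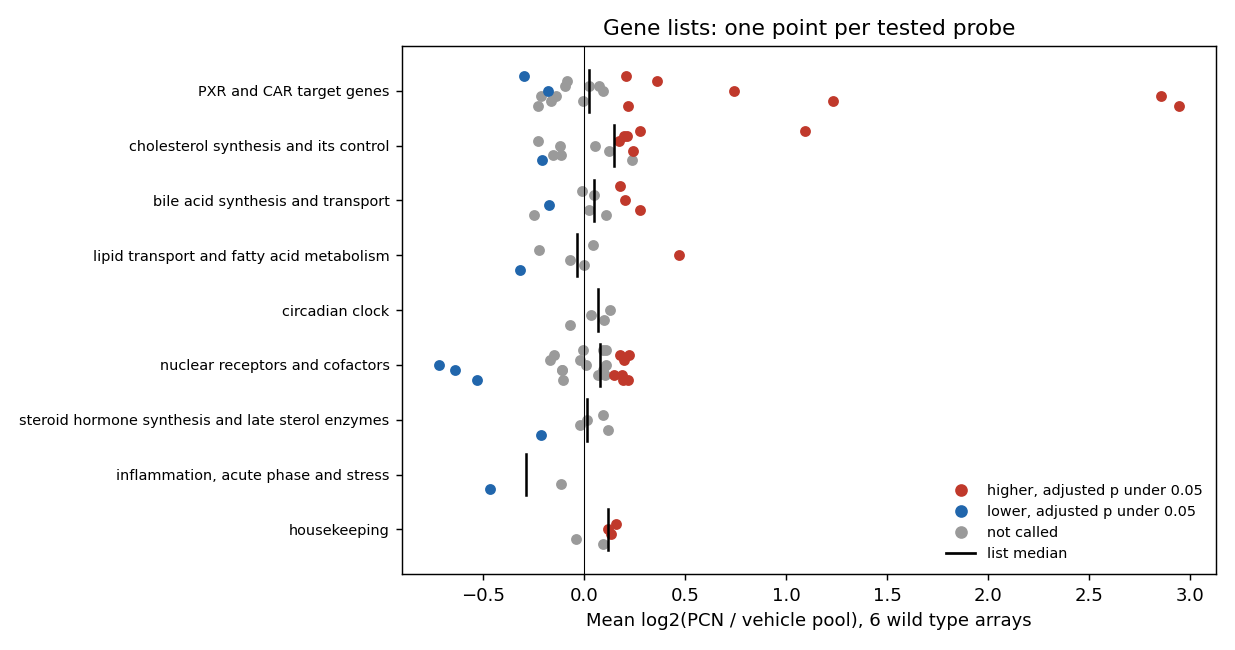
Mean log2 ratio over the 6 wild type arrays for every tested probe of the 9 gene lists, with 1 point per probe, colours for the call and a black line at each list's median. The PXR and CAR target list spreads from -0.29 to 2.94, while its median of 0.03 stays near that of all probes.

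The modest changes were carried unequally by the 6 arrays. The 44 rises under 1.5-fold had medians of 0.30, 0.38, 0.13, 0.12, 0.20 and 0.12 on arrays 1 to 6. For 23 of these 44 probes arrays 1 and 2 both lay above the other 4, as they did for 48 of all 236. The 35 falls under 1.5-fold had medians of -0.35, -0.40, -0.19, -0.22, -0.21 and -0.21, and for 12 of them arrays 1 and 2 both lay below the other 4, as they did for 41 of all 236. The 147 uncalled probes had medians within 0.05 of 0 on every array, which loess within the array largely fixes in advance. Arrays 1 and 2 stood apart among these too, both above the other 4 for 23 of the 147 and both below for 25. What set arrays 1 and 2 apart was not tested.

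**Figure D4:**
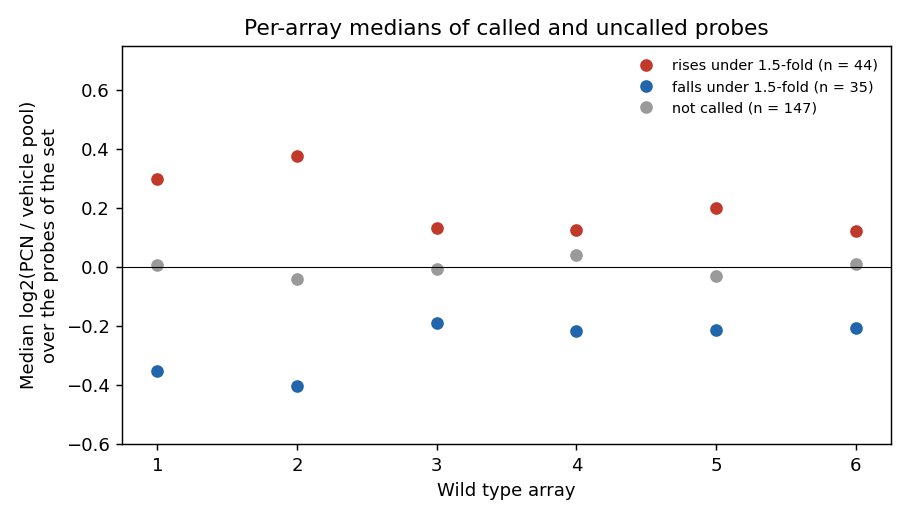
Median log2 ratio of PCN over the vehicle pool on each wild type array, for the 44 rises under 1.5-fold, the 35 falls under 1.5-fold and the 147 uncalled probes. Arrays 1 and 2 lie at 0.30 and 0.38 for the rises, above the other 4 arrays at 0.12 to 0.20.

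Against CAR-deficient liver, wild type differed for 3 probes (1.27% of 236; limma adjusted p under 0.05), with Cyp3a41a and Cyp3a13 higher (0.847%) and Crebbp lower (0.424%) in wild type. Cyp3a41a averaged 2.85 ± 0.15 in wild type and 1.94 ± 0.47 in CAR-deficient liver (SD, n = 6 each; difference 0.91, limma adjusted p = 0.00238). Cyp3a13 averaged 1.23 ± 0.16 in wild type and 0.79 ± 0.32 in CAR-deficient liver (SD, n = 6 each; difference 0.44, limma adjusted p = 0.031). Cyp3a11 had a difference of 0.72 with a 95% interval of 0.30 to 1.14 (limma adjusted p = 0.0583). Crebbp averaged -0.53 ± 0.15 in wild type and -0.14 ± 0.13 in CAR-deficient liver (SD, n = 6 each; difference -0.39, limma adjusted p = 0.031). These calls depended on single arrays and on the scaling, with 1 to 10 probes called as each array was left out and 0 under median centring, control-probe centring or in the authors' deposited log2 ratios (limma; 19, 3 and 27 at an unadjusted p under 0.05, against 39). Cyp3a41a was called in 24 of 27 alternatives, Cyp3a13 in 14 of 27 and Crebbp in 11 of 27.

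Against PXR-deficient liver, wild type differed for 124 probes (52.5%), 69 higher (29.2%) and 55 lower (23.3%) in wild type. Cyp3a11 averaged 2.94 ± 0.32 in wild type and 0.30 ± 0.28 in PXR-deficient liver (SD, n = 6 each; limma adjusted p of the difference = 1.98e-10). The lowest wild type array, 2.61, was far above the highest PXR-deficient array, 0.62. Mbtps1 averaged 1.09 ± 0.24 in wild type and 0.09 ± 0.12 in PXR-deficient liver (SD, n = 6 each; limma adjusted p of the difference = 2.09e-07). Of the 50 wild type rises, 39 were higher in wild type by this test and 1 lower, and of the 39 falls, 26 were lower in wild type and 3 higher. These probes were called on the same wild type arrays that enter the contrast, which favours those directions, so the counts are a description only. The count was 104 without array 2 of the PXR-deficient group, 73 without wild type arrays 1 and 2, and 41 under control-probe centring (8 higher and 33 lower in wild type).

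Several of the falls differed between wild type and PXR-deficient liver. Crebbp averaged -0.53 ± 0.15 in wild type and -0.07 ± 0.25 in PXR-deficient liver (SD, n = 6 each; limma adjusted p of the difference = 0.000702). Cyp2j5 averaged -0.29 ± 0.16 in wild type and 0.33 ± 0.12 in PXR-deficient liver (SD, n = 6 each; limma adjusted p of the difference = 1.65e-06). Fgb showed no called difference, at -0.64 ± 0.13 in wild type and -0.87 ± 0.50 in PXR-deficient liver (SD, n = 6 each; limma adjusted p of the difference = 0.306). Abca1 ran the other way, at -0.31 ± 0.25 in wild type and -0.96 ± 0.26 in PXR-deficient liver (SD, n = 6 each; limma adjusted p of the difference = 5.53e-05). The median of the 44 modest rises was -0.11 in PXR-deficient liver, where 5 of them were called higher and 14 lower, beside 46 higher and 46 lower of all 236 probes.

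Against CAR/PXR-deficient liver, wild type differed for 46 probes (19.5%), 20 higher (8.47%) and 26 lower (11%) in wild type, and for 17 under control-probe centring (5 higher, 12 lower). Cyp3a11 averaged 2.94 ± 0.32 in wild type and -0.37 ± 0.33 in CAR/PXR-deficient liver (SD, n = 6 each; limma adjusted p of the difference = 8.45e-13). Fgb averaged -0.64 ± 0.13 in wild type and 1.64 ± 0.19 in CAR/PXR-deficient liver (SD, n = 6 each; limma adjusted p of the difference = 1.6e-10). Crp averaged -0.46 ± 0.16 in wild type and 0.52 ± 0.08 in CAR/PXR-deficient liver (SD, n = 6 each; limma adjusted p of the difference = 7.91e-07). Both plasma protein genes thus had opposite signs in these genotypes. Each ratio is taken within a genotype, so it does not check a receptor's deletion.

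**Figure D5:**
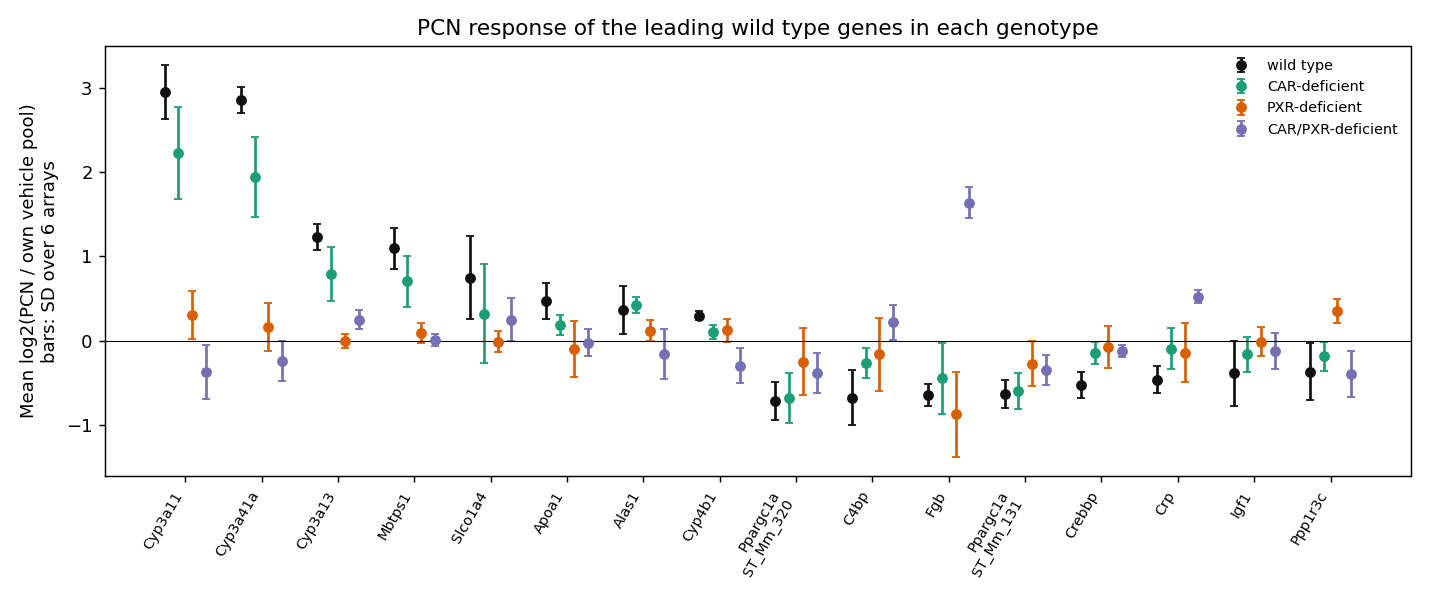
Mean log2 ratio of PCN over the genotype's own vehicle pool, with SD over 6 arrays as bars, for the 8 largest named rises and 8 largest named falls of wild type liver. Wild type stands at the left of each group, followed by CAR-deficient, PXR-deficient and CAR/PXR-deficient liver. Cyp3a11 stands at 2.94 in wild type and 2.23 in CAR-deficient liver, against 0.30 and -0.37 in the PXR-deficient and CAR/PXR-deficient groups.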

How the data were processed

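Per the file headers, the authors deposited scanner tables with foreground and background intensity per spot and channel, the percent of pixels above background by 2 SD, and a flag per spot (other). The authors also deposited log2 ratios per probe, whose within-array normalization is not given in the sources used here. They ran in the same direction as the scanner values, with medians of -0.07 to 0.15 in wild type, and served as an alternative. The scanner software is not given in the sources used here. Samples were grouped by their titles.

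Foreground medians were corrected with normexp (offset 50), 1 of 48 channels being refitted by maximum likelihood after the default fit failed, then normalized by global loess (span 0.3, 4 iterations) on unflagged mouse spots, and spots of a probe were averaged, in limma 3.58.1 under R 4.3.3. Probes above background on at least 50% of the arrays of a genotype, in either channel, were tested (236 of 284, 48 left out). A single limma model (lmFit, eBayes) of the 24 arrays held 1 term for each genotype. Differences between genotypes are contrasts of that model. Array number limits the precision. The fit was tested on simulated data with independent noise for each probe and array. That cannot speak to array effects or to the scaling.

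The probe table names 147 mouse probes (143 genes) and leaves 137 without a name here, and all 147 matched RefSeq. Named genes were up to 15 rises and 15 falls, called and of 1 sign on at least 5 of 6 arrays, plus up to 4 members of each list by adjusted p. Other members named were chosen after their values were seen, and so were the groups of probes under 1.5-fold. The arrays, lists and tests were chosen with earlier results of these data known. Alternatives changed background, normalization, filter, spots, samples and block. Same-numbered arrays of different genotypes correlated at -0.52 to 0.29 (median -0.01) in their deviations. Such correlations across probes, after loess, cannot settle whether the numbers pair the samples. The main model ignores the number, and an alternative takes it as a block.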

Additional observations from a re-analysis of the deposited data

Results flagged for a closer look

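In wild type liver, Ppp1r3c on array 2 stood at -1.04, farther from the other 5 arrays than Dixon's 95% critical value for 6 samples allows. It was the only 1 of 54 named probes to do so, where chance gives about 1 in 20. The PCN effect of 3 probes differed between wild type and CAR-deficient liver by the contrast of the limma model. Among the named probes called in wild type, the log2 difference, wild type minus CAR-deficient, was positive for Cyp3a41a (0.915) and Cyp3a13 (0.44). It was negative for Crebbp (-0.386). The PCN effect of 124 probes differed between wild type and PXR-deficient liver by the contrast of the limma model. Among the named probes called in wild type, the log2 difference, wild type minus PXR-deficient, was positive for Cyp3a11 (2.64), Cyp3a41a (2.69), Cyp3a13 (1.24), Mbtps1 (1.01), Slco1a4 (0.757), Apoa1 (0.565), Tbxas1 (0.554), Esrrb (0.4), Nr2c1 (0.509), Slc10a2 (0.334), Srebf2 (0.336), Nr5a1 (0.547), Nr2e1 (0.482), Abca1 (0.644), ST_Mm_051 (1.23), Srebf1 (0.34), Cyp46a1 (0.4), Rxrb (0.417), Nr0b2 (0.267), Scap (0.271) and Gapdh ST_Mm_155 (0.224). It was negative for Ppargc1a ST_Mm_320 (-0.467), C4bp (-0.517), Ppargc1a ST_Mm_131 (-0.362), Crebbp (-0.459), Crp (-0.318), Igf1 (-0.377), Ppp1r3c (-0.715), Pon2 (-0.404), Cyp2j5 (-0.621), Gckr (-0.354), Adipor2 (-0.52), Cyp11a1 (-0.267), Cyp2d22 (-0.489), ST_Mm_265 (-0.562) and Cyp27a1 (-0.359). The difference from PXR-deficient liver was lost in 15 of 26 alternatives for Crp and in 8 of 26 for Igf1. The PCN effect of 46 probes differed between wild type and CAR/PXR-deficient liver by the contrast of the limma model. Among the named probes called in wild type, the log2 difference, wild type minus CAR/PXR-deficient, was positive for Cyp3a11 (3.31), Cyp3a41a (3.09), Cyp3a13 (0.982), Mbtps1 (1.08), Apoa1 (0.498), Alas1 (0.521), Cyp4b1 (0.592), Srebf2 (0.327) and ST_Mm_051 (1.96). It was negative for C4bp (-0.895), Fgb (-2.28), Crebbp (-0.404), Crp (-0.985), Abca1 (-0.435) and ST_Mm_281 (-2.46). The vehicle pool of Srebf2 was not well above background on any wild type array, so its differences are not exact values. Its difference from CAR/PXR-deficient liver was lost in 7 of 26 alternatives. Among the probes with a human prefix, which enter no comparison, ST_Hs_330 was above background in both channels on 6 of 6 wild type arrays, with a mean log2 ratio of -0.166.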

How the results depend on the processing

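The number of probes called in wild type liver, 89 (50 higher, 39 lower), was 42 under median centring (21 higher, 21 lower), 25 under control-probe centring (7 and 18), 38 in the authors' deposited log2 ratios (16 and 22) and 33 without arrays 1 and 2 (15 and 18), the last chosen after seeing the data. Control-probe centring on the wild type arrays alone, also chosen later, gave 9 higher and 96 lower. Leaving out each of the 24 arrays in turn gave 46 to 100 called, 21 to 55 higher and 25 to 45 lower, with 46 without wild type array 1, 55 without wild type array 2 and 100 without PXR-deficient array 2. Called probes of 1.5-fold or more, 10, ranged between 7 and 15 over all settings. Differences from CAR-deficient liver, 3, numbered 0 under median centring, control-probe centring and the deposited log2 ratios, 11 with flagged spots left out, 1 without wild type arrays 1 and 2, and 1 to 10 leaving out 1 array. Differences from PXR-deficient liver, 124, numbered 41 under control-probe centring and 73 without wild type arrays 1 and 2, with 104 to 127 leaving out 1 array. Differences from CAR/PXR-deficient liver, 46, numbered 17 under control-probe centring, with 40 to 56 leaving out 1 array. With the replicate number as a block, 77 probes were called in wild type (42 higher, 35 lower) and 3, 120 and 45 differed from CAR-deficient, PXR-deficient and CAR/PXR-deficient liver. Signs turned under control-probe centring for Nr0b2 (-0.0555), Gapdh ST_Mm_154 (-0.0303) and Gapdh ST_Mm_155 (-0.00768) in wild type, on all arrays and on the wild type arrays alone, and for wild type minus PXR-deficient in Apoa1 (-0.0569), Nr0b2 (-0.0170) and Cyp11b2 (-0.0250). They turned in the deposited log2 ratios for Gapdh ST_Mm_154 (-0.0712) and for Apoa1, wild type minus PXR-deficient (-0.181). The cause was not tested.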

Other observations

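Other named genes passed the test in wild type liver outside the lists. Cyp2a12, a steroid-hydroxylating enzyme of liver, averaged 0.21 ± 0.13 (SD, n = 6; limma adjusted p = 0.0247), and Rarb, a retinoic acid receptor, averaged 0.24 ± 0.17 (SD, n = 6; limma adjusted p = 0.0211). Both were above 0 on 6 of 6 arrays. Ptgis, prostacyclin synthase, averaged 0.19 (limma adjusted p = 0.0262), and Lipa, the lysosomal acid lipase, averaged 0.13 (limma adjusted p = 0.0352). On the lower side Cav1, the coat protein of caveolae, averaged -0.15 (limma adjusted p = 0.0434), and the hormone genes Ghrl and Retn averaged -0.17 and -0.18 (limma adjusted p = 0.0206 and 0.0399). These genes were picked after their values were seen. Of unnamed probes, ST_Mm_304 averaged 0.45 ± 0.22 and ST_Mm_265 -0.46 ± 0.09 in wild type (SD, n = 6 each). ST_Mm_281 averaged -0.58 ± 0.42 in wild type and 1.88 ± 0.37 in CAR/PXR-deficient liver (SD, n = 6 each). The wild type call of ST_Mm_281 was lost in 8 of 24 alternatives, among them median centring, control-probe centring and leaving out arrays 1 and 2. That of ST_Mm_304 was lost under control-probe centring of all arrays.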
